A study of Homo sapiens with 24 samples.

Results

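The tubulin genes studied here are the 8 members TUBA1A, TUBA1B, TUBA1C, TUBA4A, TUBB, TUBB4B, TUBB6 and TUBG1, taken from a list of gene names and matched to the Ensembl identifiers of the expression table. All 8 were found, of 12285 genes in the table. RNA was sequenced from K562 cells, an established suspension line derived from human chronic myeloid leukaemia that keeps erythroid traits. A synchronous population was collected by centrifugal elutriation, which separates cells by size, and cells were cultured in RPMI medium with 10% bovine calf serum and antibiotics. Samples were frozen every 2 h from 0 h to 46 h, with 1 library per time point and 24 in all. By their labels the groups therefore differ in time only. There were no replicates, so each level is the value of 1 library, and spreads given over time points include any change with time.

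Alpha- and beta-tubulin form the heterodimers from which microtubules are built, and gamma-tubulin sits in the ring complexes that nucleate them. Human cells carry several genes for each class (isotypes), whose proteins are very similar. Microtubules form the mitotic spindle, and cells adjust tubulin mRNA to the amount of free tubulin dimer. TUBA1A, TUBA1B, TUBA1C and TUBA4A encode alpha-tubulins. TUBB, TUBB4B and TUBB6 encode beta-tubulins, and TUBG1 encodes gamma-tubulin.

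Promoter sequence is shown for the 3 tubulin genes called for a 24 h order (TUBB, TUBB4B and TUBG1, below) and for TUBA1C. These were chosen since the windows differ in cell-cycle motifs. The 250 bases upstream of each RefSeq start (GRCh38.p14) were searched on both strands for the CHR element, as TTTGAA or TTTAAA, and for the CCAAT box, as CCAAT. CHR elements are bound by the complexes that repress and activate late cell-cycle genes, and CCAAT boxes by NF-Y. No match of one motif overlapped a match of another in the sequences printed. TTTGAA was found in 13.4% of all 34943 promoter windows, TTTAAA in 11.3% and CCAAT in 32.0%. Of the tubulin genes, 2 of 8 (TUBA1C and TUBB4B, 3 of 12 starts) held TTTGAA, 0 held TTTAAA, and 6 of 8 (8 of 12 starts) held CCAAT. The windows of TUBA1C starts 1 and 2 overlap and hold the same CCAAT site, which is counted at each start. Capitals mark TTTGAA and CCAAT, the latter as ATTGG where it lies on the other strand. The TUBB4B stretch is chr9:137241037-137241212, plus strand. The TUBB stretch, upstream of the first of its starts, is chr6:30720102-30720200, plus strand. Both end where an annotated exon begins. The TUBA1C window, upstream of the third of its starts, is chr12:49264901-49264930, plus strand, and runs into an annotated TUBA1C exon. The TUBG1 window is chr17:42609613-42609642, plus strand, and lies over an untranslated exon of RETREG3 on the opposite strand.
TUBB4B: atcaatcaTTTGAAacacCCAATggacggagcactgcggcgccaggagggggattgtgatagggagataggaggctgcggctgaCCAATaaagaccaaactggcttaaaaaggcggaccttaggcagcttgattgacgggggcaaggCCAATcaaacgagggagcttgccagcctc
TUBB: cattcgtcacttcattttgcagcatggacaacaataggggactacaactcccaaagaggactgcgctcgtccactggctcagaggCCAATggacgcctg
TUBA1C: tggTTTGAActTTTGAAtccgCCAATcagc
TUBG1: ctcATTGGagcggaggaagttcgtgggtgg
TUBB4B carried TTTGAA next to a CCAAT box and 2 further CCAAT boxes downstream. TUBA1C carried TTTGAA at 2 positions followed by CCAAT. These matches are descriptions of the windows and not evidence of binding.

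Levels are given in FPKM as deposited, that is, fragments scaled to transcript length and to library size. Since length is scaled out, the levels of different genes can be set side by side. Summed FPKM ranged from 456791 to 591309 over the libraries, with 16 h and 18 h at 566247 and 591309 and the others at 520382 or below. The 18 h library listed 115 genes at 0, the 16 h library 102, the 32 h library 58 and the 6 h library 35. The other 20 libraries listed 4 to 27. The study named 16 h and 18 h as time points that stand apart, and 32 h to a lesser degree. It describes such time points as anomalies across the whole transcriptome and proposes that their origin is likely technical, not biological. That origin was not tested here. The 6 h library was added to them here after the values were seen. Erythroid markers were found for 10 of 10 genes, with a summed level of 1632 FPKM at the lowest (18 h) and 2920 FPKM at the highest (10 h). Of the lymphoid markers 3 of 7 were in the table (sum at most 55.95 FPKM), of the fibroblast markers 1 of 6 (at most 3.94 FPKM) and of the monocyte markers 1 of 6 (at most 28.2 FPKM). Read depth is unknown.

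TUBB was the most abundant of the 8 tubulin transcripts, at 856 ± 128 FPKM (SD over 24 time points), and TUBA1B came next at 515 ± 67.8 FPKM. TUBB was above TUBA1B in 24 of 24 libraries, with a ratio between 1.16 at 18 h and 1.86 at 12 h. Both are the main isotypes of dividing cells in their class. TUBA1C followed at 202 ± 29.9 FPKM and TUBB4B at 172 ± 23.1 FPKM. Their ranges overlapped, and TUBA1C was the higher in 20 of 24 libraries. The next pair was TUBB6 at 69.4 ± 6.77 FPKM and TUBA4A at 47.97 ± 19.9 FPKM, of which TUBB6 was higher in 21 of 24 libraries. TUBG1 stood at 41.1 ± 4.97 FPKM, close to TUBA4A, which exceeded it in 16 of 24 libraries. TUBA1A, the isotype typical of neurons, was lowest at 1.72 ± 0.354 FPKM, between 1.15 FPKM at 14 h and 2.35 FPKM at 22 h. The ranges over time did not overlap between TUBA1B and TUBA1C, between TUBB4B and TUBB6, or between TUBG1 and TUBA1A.

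**Figure D1:**
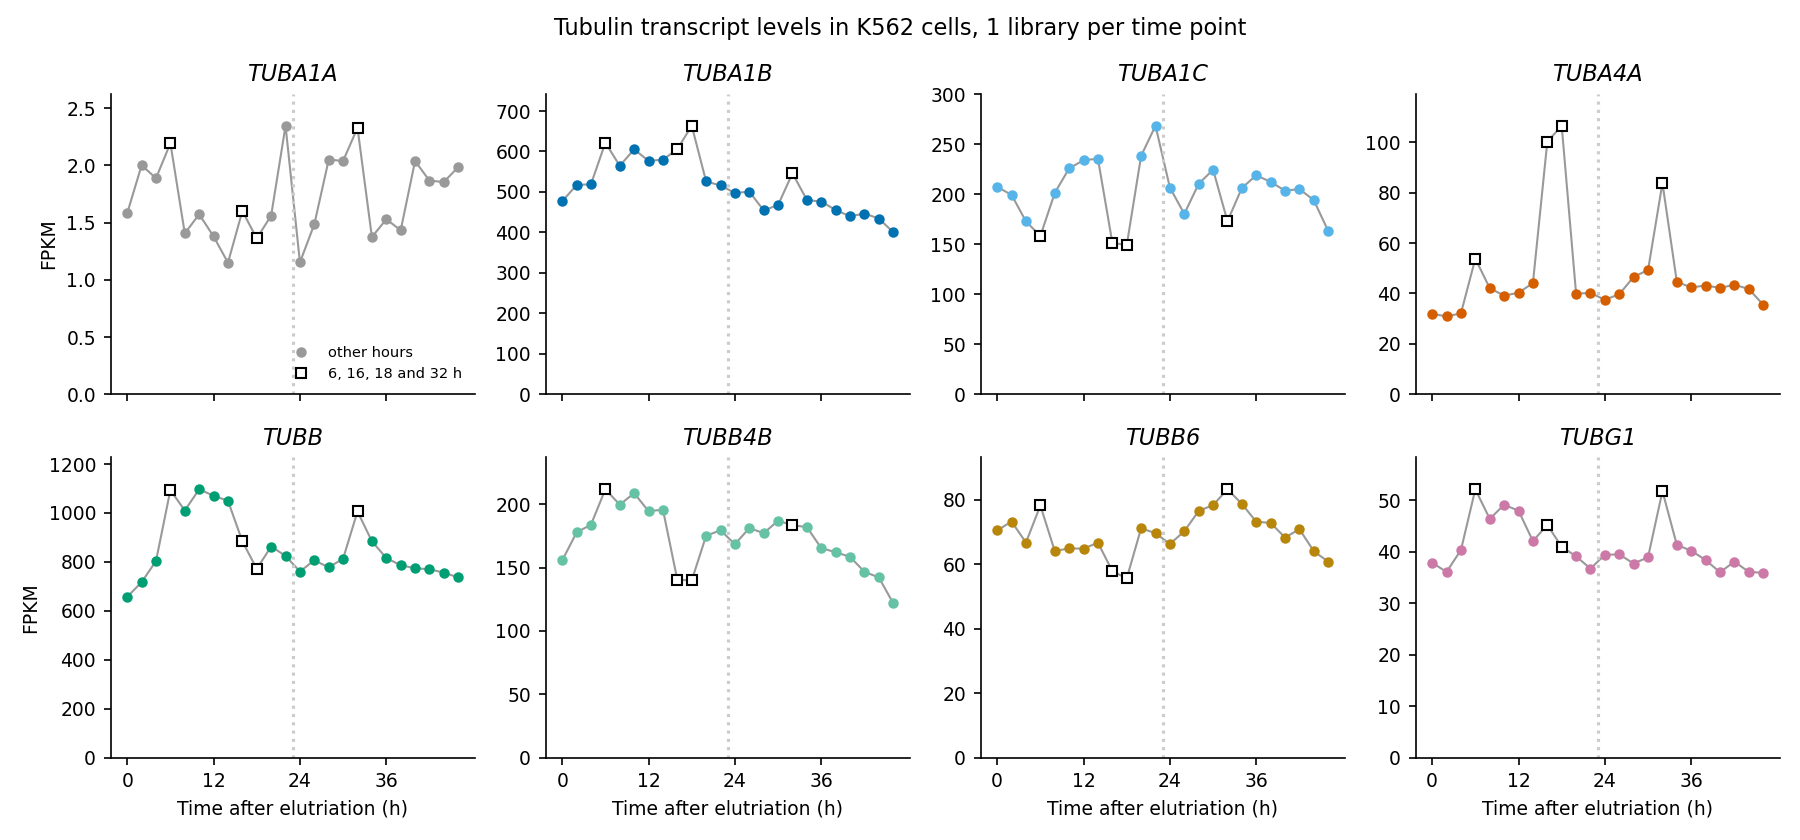
Level of each tubulin gene (FPKM, vertical axis from 0) against hours after elutriation, 1 point per library. Open squares mark 6, 16, 18 and 32 h, and the dotted line separates the first and the second 24 h. TUBA4A peaks at the open squares, at 106.5 FPKM at 18 h, while TUBA1C dips there.

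The transcripts of these genes share sequence, which limits how exactly reads can be divided among them. Of the 50-base words in its annotated transcripts (GENCODE 29), TUBA1B shared 38.7% with other genes, TUBA1A 33.6%, TUBA1C 33.1%, TUBB 23.9%, TUBG1 22.0%, TUBA4A 17.9%, TUBB6 17.02% and TUBB4B 11.01%. For TUBA1A the closest gene was TUBA1C (24.6% shared), and for TUBG1 it was its paralog TUBG2 (18.2%). TUBA4A shared 13.7% with the neighbouring gene STK16 and 4.14% with TUBA4B. How the submitters' quantification assigned such reads was not given in the sources used here, so the low TUBA1A level in particular is uncertain.

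Because FPKM is per length, each isotype can be expressed as a share of the summed members of its class. TUBA1B made up 67.1% ± 3.17 (SD, 24 time points) of the alpha members, from 62.4% at 22 h to 74.4% at 6 h. TUBA1C made up 26.5% ± 4.19, from 16.2% at 18 h to 32.5% at 22 h. TUBA4A made up 6.19% ± 2.09, from 4.13% at 2 h to 11.7% at 16 h, and TUBA1A made up 0.227%. The lowest TUBA1C share and the highest TUBA4A share were at 18 h and 16 h. Without 16 h and 18 h the highest share of TUBA4A was 10.4%, at 32 h. Among the beta members the shares had smaller SDs, in percentage points, than the shares of TUBA1B and TUBA1C. TUBB held 77.8% ± 2.01 (74.1% to 81.7%), TUBB4B 15.8% ± 1.37 (12.96% to 18.3%) and TUBB6 6.41% ± 0.896 (4.73% to 7.97%). The ratio of summed alpha to summed beta members was 0.705 ± 0.0756, with its lowest value of 0.604 at 6 h and its highest of 0.952 at 18 h. Without 16 h and 18 h its highest value was 0.812, at 0 h. All 8 genes together took between 0.326% (18 h) and 0.457% (10 h) of the summed FPKM.

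**Figure D2:**
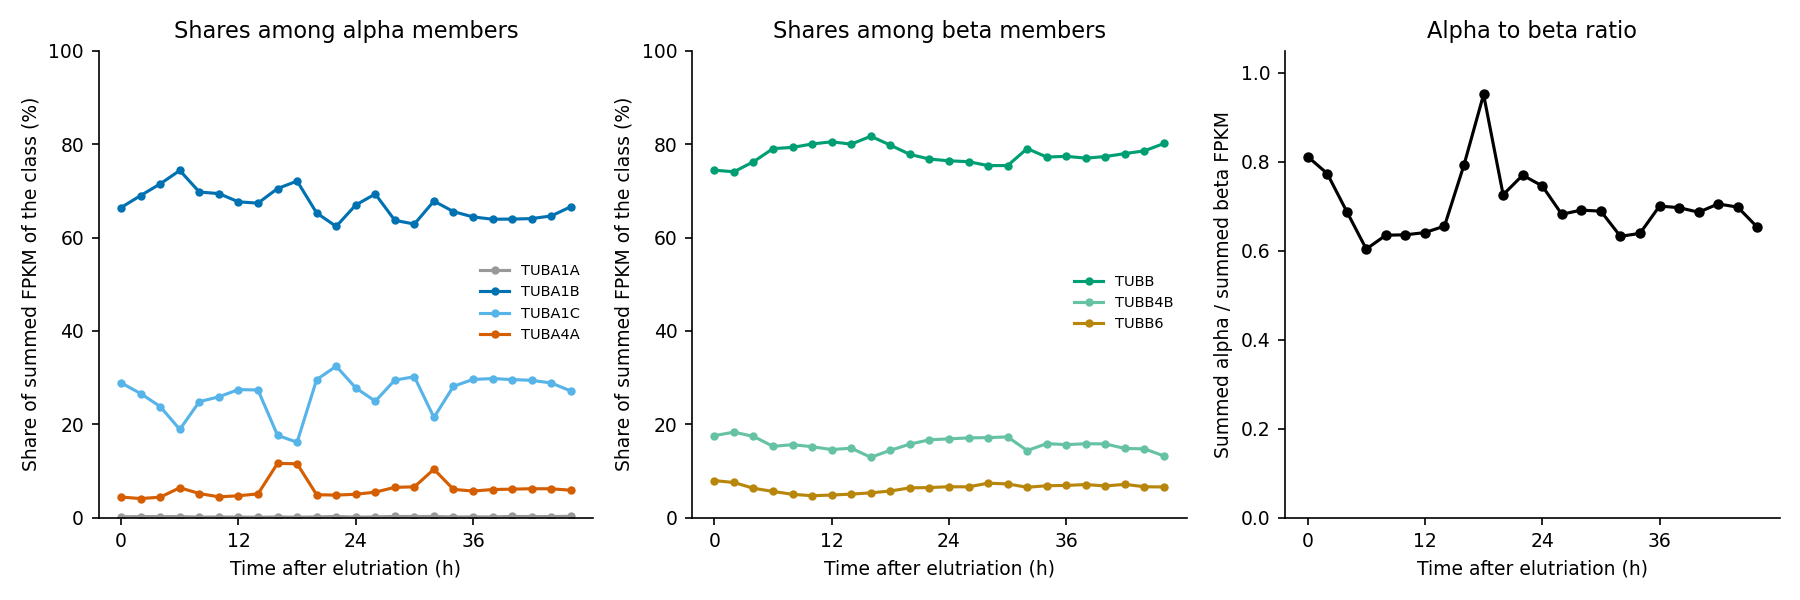
Share of each isotype in the summed FPKM of the alpha members (left) and beta members (middle), in percent, and the ratio of summed alpha to summed beta FPKM (right), against hours after elutriation. TUBA1C falls and TUBA4A rises in share at 16 h and 18 h, and the ratio reaches 0.952 at 18 h.

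Whether levels followed a 24 h order in time was asked with a rank statistic, the largest Kendall correlation with a cosine of 24 h over 12 phases (JTK), for a cycle length of 24 h that the study assumed. A gene was called at an adjusted p of 0.05 or below, Benjamini-Hochberg adjusted over all genes after 100000 permuted orderings. Permuting treats successive libraries of 1 culture as exchangeable, so a slow drift also lowers p. Of the tubulin genes 3 of 8 were called, against 11.9% of all 12285 genes tested. TUBB4B, a widely expressed beta-tubulin, was called with a peak at 8 h (tau = 0.60, permutation test, adjusted p = 0.00806). It was lowest at 122 FPKM at 46 h, had a median of 177 FPKM and was highest at 212 FPKM at 6 h. TUBB was called with a peak at 10 h (tau = 0.58, permutation test, adjusted p = 0.0126). It was lowest at 658 FPKM at 0 h, had a median of 810 FPKM and was highest at 1097 FPKM at 10 h. TUBG1 was called with a peak at 10 h (tau = 0.53, permutation test, adjusted p = 0.0229). It was lowest at 35.9 FPKM at 46 h, had a median of 39.4 FPKM and was highest at 52.1 FPKM at 6 h. All 3 were also called without 16 h and 18 h, and without 6 h, 16 h, 18 h and 32 h, when 8.64% of all genes were called. With a smooth trend on the GC content of transcripts removed at each time point, TUBB was called (adjusted p = 0.0275, permutation test), while TUBB4B and TUBG1 were both at an adjusted p of 0.243. At assumed periods of 20 h and 28 h none of the 3 was called. The other 5 tubulin genes had adjusted p values between 0.131 (TUBB6) and 0.752 (TUBA1C) in the permutation test.

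The size of the wave was taken from a harmonic fit in limma on log2(FPKM + 1), with a linear trend, over the 12253 genes that averaged 1 FPKM or more. Amplitudes on that scale understate changes of low genes. The fit assumes that residuals of successive libraries are independent. The fit called 4 of 8 tubulin genes, against 11.7% of all genes tested. TUBB had an amplitude of 0.20 ± 0.044 (SE), a peak-to-trough ratio of 1.32, with a fitted peak at 10.8 h (limma, adjusted p = 0.0193). TUBB4B had an amplitude of 0.18 ± 0.040 with a peak at 8.00 h (limma, adjusted p = 0.0202). TUBG1 had an amplitude of 0.15 ± 0.036 with a peak at 10.2 h (limma, adjusted p = 0.0293). With the GC trend removed TUBB was called (limma, adjusted p = 0.0215), while TUBB4B had an amplitude of 0.09 (limma, adjusted p = 0.125) and TUBG1 of 0.13 (limma, adjusted p = 0.0790). The median amplitude of all genes tested was 0.14. TUBB6, a beta-tubulin that many tissues express at low level, had an amplitude of 0.14 ± 0.038 with an earlier peak at 6.05 h (limma, adjusted p = 0.0470). It was no longer called without 16 h and 18 h, where its amplitude was 0.10 (limma, adjusted p = 0.136), and its amplitude was 0.01 with the GC trend removed. TUBA4A had the largest amplitude of the 8, 0.24, with the largest error, ± 0.13, and was not called. TUBA1C had an amplitude of 0.04 ± 0.066 and a peak hour known to within 7.13 h (SE) only.

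**Figure D3:**
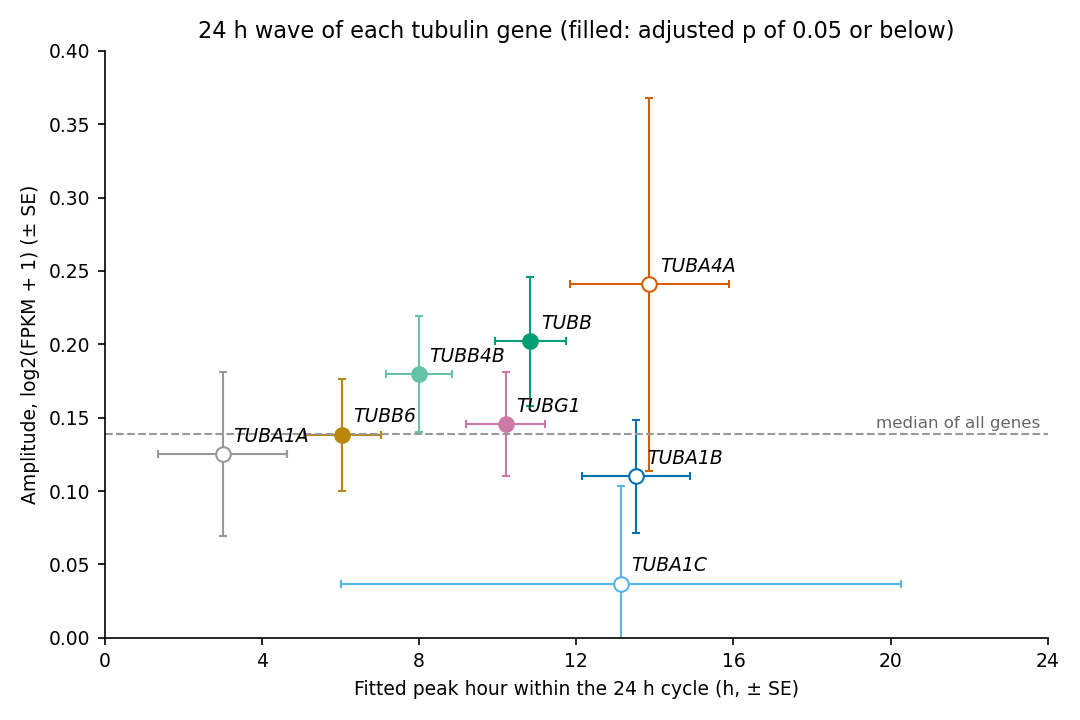
Amplitude of the 24 h wave on the log2(FPKM + 1) scale against its fitted peak hour, 1 point per tubulin gene with standard errors in both directions. Filled points had an adjusted p of 0.05 or below, and the dashed line is the median amplitude of all genes, 0.14. The 4 filled points peak between 6.05 h and 10.8 h.

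The second 24 h was compared with the first at matched hours, 12 libraries each, with limma. TUBA1B was the member that changed, and it was lower on the second day. It ranged from 477 to 664 FPKM on the first day, with a median of 571 FPKM, and from 400.3 to 546 FPKM on the second, with a median of 462 FPKM. The ranges overlapped, and TUBA1B was lower on the second day at 11 of 12 matched hours. The difference was -0.27 ± 0.062 (SE) on the log2(FPKM + 1) scale (limma, adjusted p = 0.0103), and -0.22 without 16 h, 18 h and their matched hours. Thus 1 of 8 tubulin genes was called lower, against 5.15% of all genes, and 0 were called higher, against 9.44%. None had a positive difference at an unadjusted p under 0.05. TUBB was lower on the second day at 10 of 12 hours, with a difference of -0.15 ± 0.069 that did not pass (limma, adjusted p = 0.164). TUBB4B (-0.13 ± 0.064) and TUBG1 (-0.11 ± 0.058) had differences of the same sign, and TUBB6 had a positive difference of 0.10 ± 0.062. None of these 3 passed the threshold, and all had adjusted p values of 0.198 to 0.276 in limma. TUBB4B passed with the GC trend removed, at -0.21 (limma, adjusted p = 0.0169). For TUBA4A the difference was -0.04 with all libraries and 0.21 without 16 h, 18 h and their matched hours, neither of which passed. Successive libraries of 1 culture are not independent, and a slow drift over 46 h cannot be told apart from a difference between days.

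Whether the 24 h wave itself differed between days was tested as an interaction in limma. Of the tubulin genes 0 of 8 were called, against 5.84% of all genes. The members with an unadjusted p under 0.05 were TUBB6, TUBA4A and TUBB. For TUBB the fitted amplitude was 0.30 on the first day and 0.13 on the second (limma, adjusted p = 0.146). The first day held the 4 highest TUBB libraries outside 6 h and 32 h, from 1010 FPKM at 8 h to 1097 FPKM at 10 h. At 34 h, the hour matched to 10 h, TUBB stood at 884 FPKM. Without 6 h, 16 h, 18 h and 32 h the TUBB amplitudes were 0.31 and 0.09, and TUBB, TUBB6 and TUBA1C were called (limma, adjusted p = 0.00692, 0.00705 and 0.0331). That setting called 3 of 8 tubulin genes, and 1383 of all 12253 genes against 715 with all libraries. TUBA1C then had a fitted peak at 17.1 h on the first day and 10.00 h on the second. The highest TUBA1C level, 269 FPKM, was at 22 h, and the level at the matched hour of the second day, 46 h, was 163 FPKM.

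**Figure D4:**
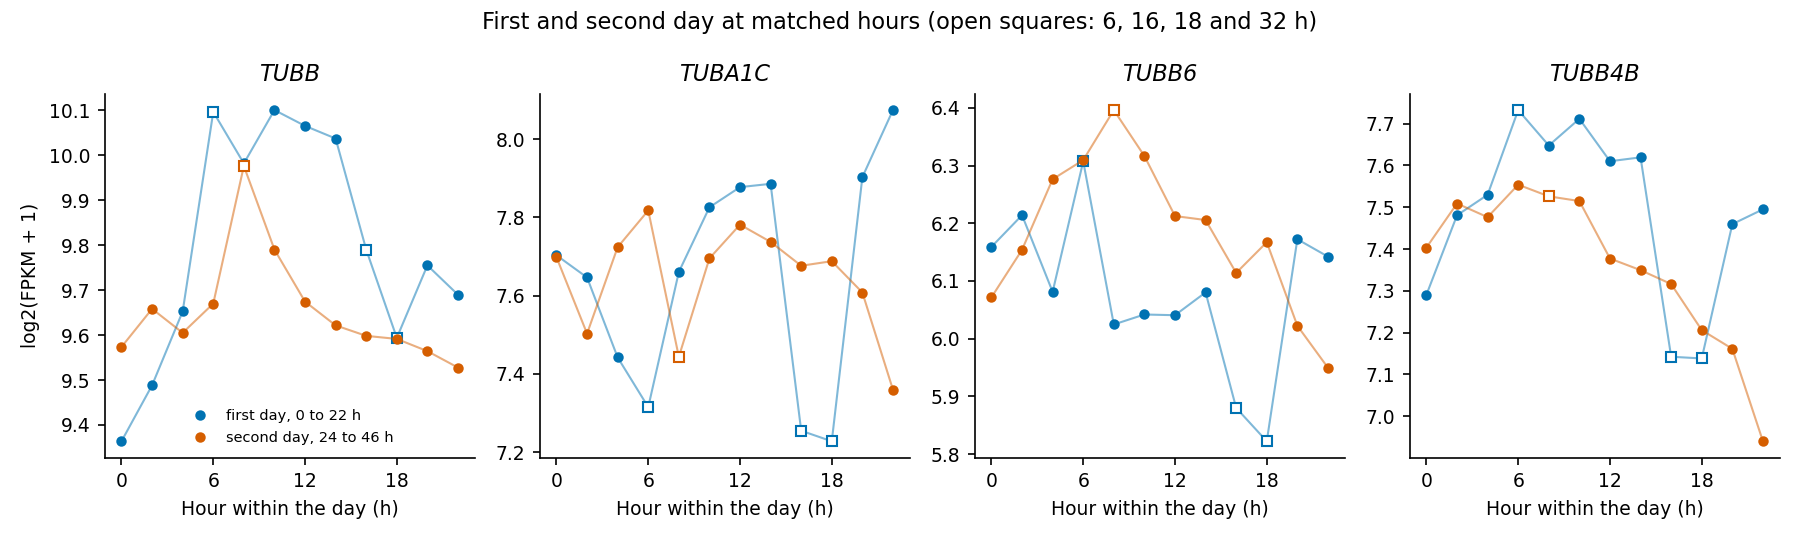
log2(FPKM + 1) of TUBB, TUBA1C, TUBB6 and TUBB4B at matched hours of the first day (0 to 22 h) and the second day (24 to 46 h), with open squares at 6, 16, 18 and 32 h. The vertical axes do not start at 0 and differ between panels. TUBB is higher on the first day from 4 h to 22 h (10 of 12 hours), with small gaps at 8 h and 18 h. TUBB6 is higher on the second day from 4 h to 18 h (8 of 12 hours), with a small gap at 6 h.

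The 16 h and 18 h libraries were compared with the straight line between 14 h and 20 h on the log2(FPKM + 1) scale, with the same measure at 16 other consecutive pairs as reference. TUBA4A, an alpha-tubulin abundant in platelets and muscle whose gene encodes no C-terminal tyrosine, stood 1.28 above the line. It was at 44.1 FPKM (14 h), 100.1 FPKM (16 h), 106.5 FPKM (18 h) and 39.9 FPKM (20 h). It also reached 83.8 FPKM at 32 h and 53.8 FPKM at 6 h, while the other 20 libraries lay between 30.9 and 49.3 FPKM without overlap. TUBA4A was thus 1 of 8 tubulin genes at 2-fold or more above its flanks, against 8.95% of all genes. None of the 8 was 2-fold below, against 7.11% of all genes. With 1 library per hour these counts carry no test.

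TUBA1C moved in the other direction at these libraries. It was at 235 FPKM (14 h), 152 FPKM (16 h), 149 FPKM (18 h) and 238 FPKM (20 h), a deviation of -0.65. Its reference pairs lay between -0.30 and 0.30. TUBA1C was also below its neighbours at 6 h (-0.24) and 32 h (-0.31), where TUBA4A was above them (0.54 and 0.82). At those single hours 0 of 8 tubulin genes reached 2-fold, against 0.571% of all genes above and 0.865% below at 6 h, and 0.449% and 1.01% at 32 h. The 2 alpha isotypes thus moved in opposite directions in these 4 libraries, of which 6 h was added after the values were seen. They were the highest and the lowest of the 8 members in each comparison. Of all genes tested, 14.8% lay lower than TUBA1C at 16 h and 18 h, 10.8% at 6 h and 11.7% at 32 h. For TUBA4A these shares were 95.9%, 96.7% and 99.0%.

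The beta members were below the line at 16 h and 18 h, by -0.40 for TUBB4B, -0.28 for TUBB6 and -0.20 for TUBB, each outside the range of its reference pairs. Of all genes tested, 23.5% lay lower than TUBB4B, 28.3% lower than TUBB6 and 31.5% lower than TUBB. How many of all genes left their own reference range was not counted, so leaving it is not particular to tubulin genes. TUBB4B was at 196 FPKM at 14 h and at 140.3 and 139.9 FPKM in these libraries. At 6 h, by contrast, TUBB (0.28), TUBB6 (0.25) and TUBB4B (0.14) were above their neighbours. With the GC trend removed, the deviations at 16 h and 18 h became 0.02 for TUBB4B, inside its reference range, and 0.15 for TUBB6, above its range. The transcripts of TUBB4B and TUBB6 have a GC content of 59.5%, higher than in 84.6% of genes. The deviation of TUBB became -0.16, inside its reference range, while that of TUBA1C was -0.66 and that of TUBA4A 1.54. TUBA1B stood 0.20 above the line, but at -0.03 after upper-quartile scaling. Over the whole table the median was 0.14 without scaling and -0.06 with it. TUBG1 (0.08) and TUBA1A (0.08) stayed within their reference ranges as deposited. With the GC trend removed TUBG1 stood at 0.35 and TUBA1B at 0.32, both above their reference ranges, while TUBA1A (0.11) stayed within its own. Any part of read depth or RNA quality in these deviations was not tested.

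**Figure D5:**
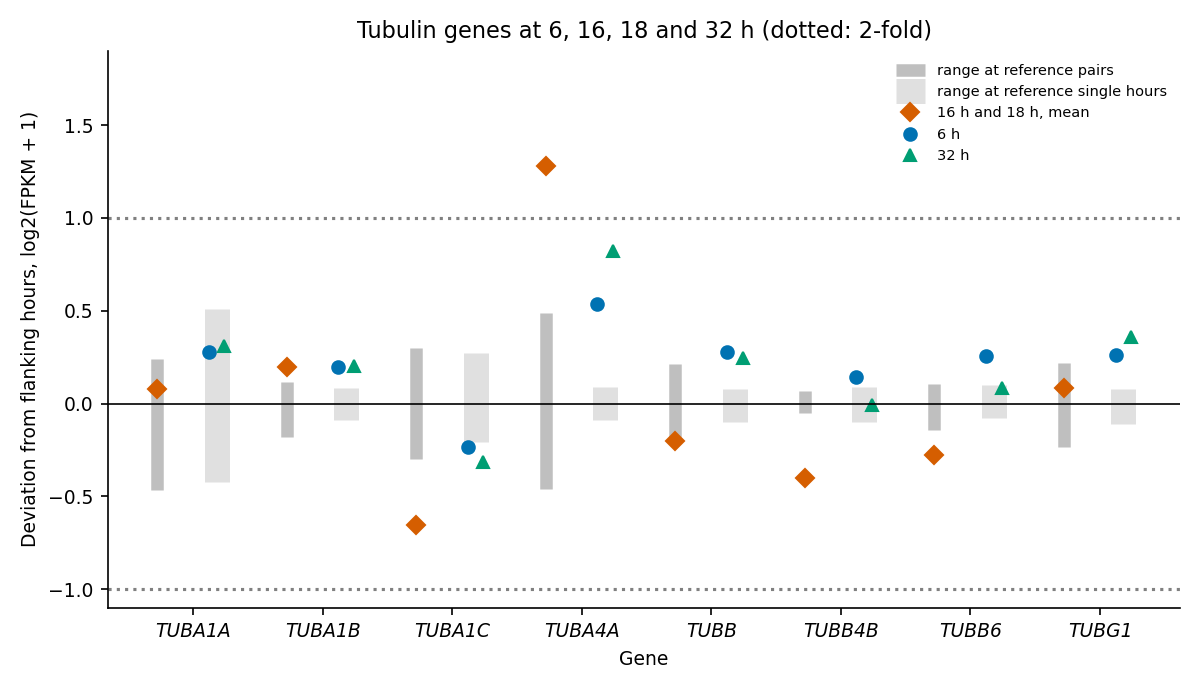
Deviation of each tubulin gene from its flanking hours on the log2(FPKM + 1) scale, as the mean of 16 h and 18 h (diamonds), at 6 h (circles) and at 32 h (triangles). Bars give the range of the same measure at reference pairs or single hours, and dotted lines mark 2-fold. TUBA4A lies above its bars at all of these hours, and TUBA1C below.

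How far the tubulin genes moved together is described by Pearson's r of log2(FPKM + 1) over 22 time points (16 h and 18 h left out), which share libraries and slow drift. TUBB, TUBA1B, TUBB4B and TUBG1 formed a group with r between 0.70 (TUBB4B with TUBG1) and 0.89 (TUBB with TUBG1). Over all 24 time points the group's r fell to 0.45 for TUBA1B with TUBB4B and to 0.56 for TUBB4B with TUBG1, while TUBB with TUBG1 was at 0.87. TUBA4A had r of 0.50 with TUBB and 0.56 with TUBG1, which were 0.36 and 0.14 with 6 h and 32 h left out as well. For TUBA1C with TUBB r was 0.07, and 0.43 with 6 h and 32 h left out as well. TUBB6 with TUBB was at 0.05 and TUBA1A with TUBB at -0.16. With CCNB1, a mitotic cyclin that peaked at 237 FPKM at 22 h, r was 0.64 for TUBA1C and -0.29 for TUBB. These were 0.45 and -0.31 over all 24 time points, and 0.55 and -0.12 with 6 h and 32 h left out as well. Over the 22 time points TUBA1B (-0.44), TUBG1 (-0.43) and TUBB4B (-0.36) had lower r with CCNB1 than TUBB. With CCNE2, a cyclin of the G1/S transition that peaked at 38.9 FPKM at 2 h, r was -0.49 for TUBB and 0.01 for TUBB4B.

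The genes most alike in pattern were sought within the set averaging 10 FPKM or more, again over 22 time points. For TUBB they were SLC29A1 (r = 0.98), EI24 (0.95) and SRSF1 (0.94). For TUBA1B they were SUMO3 (0.97), C1QBP (0.96) and GAPDH (0.94), and for TUBB4B they were DYNLL1 (0.96), SLC10A3 (0.95) and WDR5 (0.94). For TUBG1 they were SLC4A2 (0.97), KCNH2 (0.94) and PABPN1 (0.94). Some of these matches parted at 16 h and 18 h, since over all 24 time points r was 0.32 for TUBA1B with GAPDH and 0.52 for TUBB with EI24. For TUBA1C the most alike were MRPL18 (0.90), MRPS23 (0.88) and OIP5 (0.87). For TUBA4A they were SKA3 (0.92), MAX (0.92) and ZCCHC17 (0.91). Their r with TUBA4A was higher over all 24 time points (0.94, 0.97 and 0.96). It was lower with 6 h and 32 h left out as well (0.79, 0.88 and 0.83). For TUBB6 they were PKM (0.85), LZTS2 (0.84) and EZR (0.84), and for TUBA1A they were STRN3 (0.90) and FYTTD1 (0.78). Over all 24 time points r was -0.0091 for TUBB6 with PKM, -0.13 with EZR and 0.83 with LZTS2, and for TUBA1A it was 0.26 with STRN3 and 0.08 with FYTTD1.

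Of 15 other tubulin genes listed, 6 were in the table and 0 were called by JTK, against 11.9% of all genes. TUBE1, which encodes the epsilon-tubulin of centrioles, stood 1.11 above the line at 16 h and 18 h, and TUBB1, the beta-tubulin of platelets, stood 1.09 above it. TUBB3, a beta-tubulin typical of neurons, stood at -1.51, with 2.21 FPKM at 16 h and 0.97 FPKM at 18 h. Of the 6 genes, 2 were thus 2-fold above the line and 1 was 2-fold below, against 8.95% and 7.11% of all genes. TUBB3 was near the floor in these libraries. The genes of this list that stayed under 2-fold were TUBB2A (-0.61), TUBD1 (0.22) and TUBAL3 (-0.20).

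Tubulin is folded by prefoldin, the CCT chaperonin and a set of cofactors. JTK called 3 of 7 genes of the cofactor list (TBCEL, ARL2 and TBCB), against 11.9% of all genes. It called 2 of 8 CCT subunits (CCT3 and CCT7) and 0 of 6 prefoldin subunits. The cofactor list holds TBCK, which is not a tubulin cofactor and was not called. It also holds TBCEL, a relative of cofactor E with a mean of 1.30 FPKM. ARL2, a small GTPase that acts with the cofactors, peaked at 6 h in JTK (permutation test, adjusted p = 0.0187), and TBCB, which handles alpha-tubulin, also peaked at 6 h (permutation test, adjusted p = 0.0222). Without 6 h, 16 h, 18 h and 32 h, 0 of the 7 listed cofactor genes and 1 of the 8 CCT subunits were called, against 8.64% of all genes. On the second day 2 of 8 CCT subunits were lower, against 5.15% of all genes, CCT2 by -0.28 (limma, adjusted p = 0.0122) and CCT5 by -0.19 (limma, adjusted p = 0.0358), which were picked for passing this test. TUBA1B fell over the same days.

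Of the partners of TUBG1 in the gamma-tubulin ring complex, 2 of 10 were called by JTK, against 11.9% of all genes. TUBGCP4, a subunit of the ring, peaked at 14 h (permutation test, adjusted p = 0.00693), and MZT1, a small protein that activates it, peaked at 22 h (permutation test, adjusted p = 0.0369). TUBG1 itself peaked at 10 h. JTK called 0 of 3 genes of tubulin mRNA autoregulation, 1 of 15 tubulin-modifying enzymes (AGBL5, a deglutamylase) and 0 of 22 microtubule-binding proteins. Among cell-cycle genes it called 9 of 20 S phase genes and 5 of 23 G2/M genes, against 11.9% of all genes. Without 6 h, 16 h, 18 h and 32 h it called 11 of 20 and 0 of 23, against 8.64%.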

How the data were processed

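The FPKM table was used as deposited. The authors made it from total RNA libraries with STAR, Cufflinks and Cuffnorm on GRCh37, per the submitters' processing notes, without versions. The second deposited table holds a score per gene and time point, the authors' cleaned version of the first, and served as an alternative. Samples were assigned by the time in their labels. Read depth is not recoverable from FPKM, so no count model or counting interval was used. The 8 genes and all lists were chosen with earlier results of these data known. JTK (Python 3.11.15, NumPy 2.4.6) used all 12285 genes. limma 3.58.1 (R 4.3.3) used log2(FPKM + 1) and genes averaging 1 FPKM or more, with moderated tests and Benjamini-Hochberg adjustment. The tests were checked on simulated data with known changes. Estimates matched the known sizes, and the day comparison found fewer of the small changes than the other tests. The simulated noise was independent between hours, so this check does not cover slow drift or libraries that stand apart. Named genes were the 8 tubulin genes, the 3 most alike of each, CCNB1, CCNE2, and at most 4 JTK calls per list. Of the genes this rule names, 1 is not reported here. Others, such as TUBE1, TUBB1, TUBB3, CCT2 and CCT5, were chosen after their values were seen. GENCODE 29 gave GC content and shared sequence, and RefSeq (GRCh38.p14) the promoters. No expression value was placed by coordinates. Alternatives were other periods, pseudocounts, filters, scalings, GC correction and left-out hours.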

Additional observations from a re-analysis of the deposited data

Results flagged for a closer look

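Results are listed here where the wave of the first day differed from that of the second by the interaction test in limma under any setting. Without 16 h and 18 h this held for TUBB6 (limma, adjusted p = 0.0358), whose fitted amplitude was 0.07 on the first day and 0.16 on the second, on the log2(FPKM + 1) scale. The fitted peak of TUBB6 was then at 0.95 h on the first day and 8.57 h into the second. Without 6 h, 16 h, 18 h and 32 h, a choice made after seeing the data, it held for TUBB (limma, adjusted p = 0.00692), TUBB6 (limma, adjusted p = 0.00705) and TUBA1C (limma, adjusted p = 0.0331). With all 24 libraries the adjusted p was 0.146 for TUBB, 0.0988 for TUBB6 and 0.832 for TUBA1C.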

How the results depend on the processing

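No pairing by replicate number could be made, since each time point has 1 library and the labels carry no such numbers. The day comparison has the matched hour as a block, and without that block it also called 1 tubulin gene lower. With the period, varied for JTK and the harmonic fit only, set to 20 h, JTK called 336 genes and 0 tubulin genes, and the harmonic fit 155 and 0. At 28 h JTK called 410 and 1 (TUBB6), and the fit 390 and 1. With the GC trend removed JTK called 790 and 1, the fit 951 and 1, and the day comparison 1013 genes and 2 tubulin genes lower. Among genes averaging 10 FPKM or more the day comparison called 424 higher and 349 lower. The interaction called 1 tubulin gene without 16 h and 18 h, and 1383 genes and 3 tubulin genes without 6 h, 16 h, 18 h and 32 h. At 16 h and 18 h, 1308 genes were below with a pseudocount of 0.1, 549 with the higher filter, 580 above after upper-quartile scaling, 2933 above and 2060 below at 1.5-fold (with 1 tubulin gene below, TUBA1C), and 647 above and 448 below with the GC trend removed. The split of 1097 above and 871 below became 802 and 1126 after median centring and 580 and 1298 after upper-quartile scaling. The day difference changed sign, without passing in any of these fits, for TUBA4A (0.21 without 16 h, 18 h and their matched hours, 0.15 without 4 hours and their matched hours, 0.0076 after upper-quartile scaling), TUBA1A (-0.039 without 4 hours and their matched hours) and TUBA1C (0.037 after upper-quartile scaling). Of 407 planned and 42 added values, 341 and 34 were labelled as unchanged. For a tested gene the label asked for the same side of the threshold, and for the day difference also the same sign. For a count it allowed a change of up to 1.5-fold, such as 4 against 3 tubulin genes called by the harmonic fit. For a deviation or share it allowed a shift within the spread, also where a deviation under 2-fold changed sign. Causes were not tested.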
